A study of Homo sapiens with 6 samples.

Results

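Matrix metalloproteinases and their tissue inhibitors were examined in MDA-MB-231, an established human triple-negative breast cancer cell line of mesenchymal, invasive character. The group was given by name as 10 genes, the proteases MMP1, MMP2, MMP3, MMP9, MMP13 and MMP14 and the inhibitors TIMP1, TIMP2, TIMP3 and TIMP4. All 10 were measured, out of 18377 genes with a probe set of their own on the array. TIMP3 was read by 2 probe sets, of which the brighter on average was used, and each other gene by 1. The cells carried the pTargeT mammalian expression vector, with GHSROS inserted in 3 cultures and empty in the other 3. GHSROS is a noncoding transcript from the opposite strand of the ghrelin receptor gene, and the comparison asks which genes differ when the cells are made to express it. Total RNA was hybridised to 1-colour Affymetrix Human Gene arrays, 1 for each culture. The vector backbone and the growth medium with calf serum were common to both groups, and whether transfected cells were selected or cloned is not stated by the labels.

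Matrix metalloproteinases are zinc-dependent endopeptidases that cut collagens, gelatin, laminins and other extracellular proteins. They are made as inactive proenzymes, and most are secreted, while MMP14 is anchored in the plasma membrane. TIMPs block the active site of MMPs by binding tightly in a complex, and a complex of MMP14 with TIMP2 also serves as the docking site at which pro-MMP2 is activated. In breast cancer these genes are known both from the tumour cells and from the surrounding stroma, and MDA-MB-231 cells are widely used to study invasion through collagen and basement membrane.

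The values are deposited log2 expression values, in which a difference of 1 is a doubling. Array medians over all probe sets lay between 6.559 and 6.648. The brightness of a probe set depends on its probes as well as on the RNA, so levels are placed only against the arrays' medians and the distribution of gene means, and no call of presence or absence was made. The mesenchymal genes VIM, CD44, AXL, MSN, FOSL1 and CAV1, markers of this line, all lay above the median of all probe sets, with list means of 12.67 ± 0.05 (SD, n = 3) and 12.62 ± 0.05 in the empty-vector and GHSROS arrays. The estrogen and progesterone receptor genes ESR1 and PGR (means over the 6 arrays 5.13 and 4.57) and the E-cadherin gene CDH1 (5.17) lay below it. Of the 7 genes listed as low in this line the other 4, KRT8 (12.09), ERBB2 (8.89), GATA3 (7.40) and EPCAM (7.37), lay above it. Fibroblast marker genes averaged 5.32 ± 0.03 and 5.34 ± 0.10, with 2 of 8 above the median of all probe sets. Leukocyte markers averaged 5.60 ± 0.08 and 5.55 ± 0.10 with only CD68 of 8 above it, and PTPRC, which defines leukocytes, stood at 3.61.

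Members ranged from bright to dim, with the median of all probe sets as the only landmark. MMP1, MMP9, MMP14, TIMP1, TIMP2 and TIMP3, 6 of the 10, had means above the median of all probe sets, 6.59, as did 61.8% of all genes. MMP1, TIMP1, TIMP2 and TIMP3 stood at or above percentile 98.4 of the gene means, MMP14 at percentile 95.1 and MMP9 at percentile 60.6. MMP2, MMP3, MMP13 and TIMP4 lay below the median, between 4.41 and 6.47 on average. TIMP4, at 6.47, was close to the median and above it on empty-vector arrays 1 and 2 and GHSROS array 3. In RNA from whole cultures, fewer cells expressing a gene and less RNA per cell cannot be told apart. No member differed between GHSROS and the empty vector by the test across all genes. In limma 0 of 10 had an adjusted p under 0.05, beside 0% of all 18377 genes. At an unadjusted p under 0.05 there were also 0 members, beside 1.77% of all genes (0.974% higher and 0.794% lower). The signs were split, 5 higher and 5 lower with a median log2 fold change of 0.00, beside 50.9% of all genes higher. TIMP2 counts among the higher members although its difference rounds to 0.00.

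**Figure D1:**
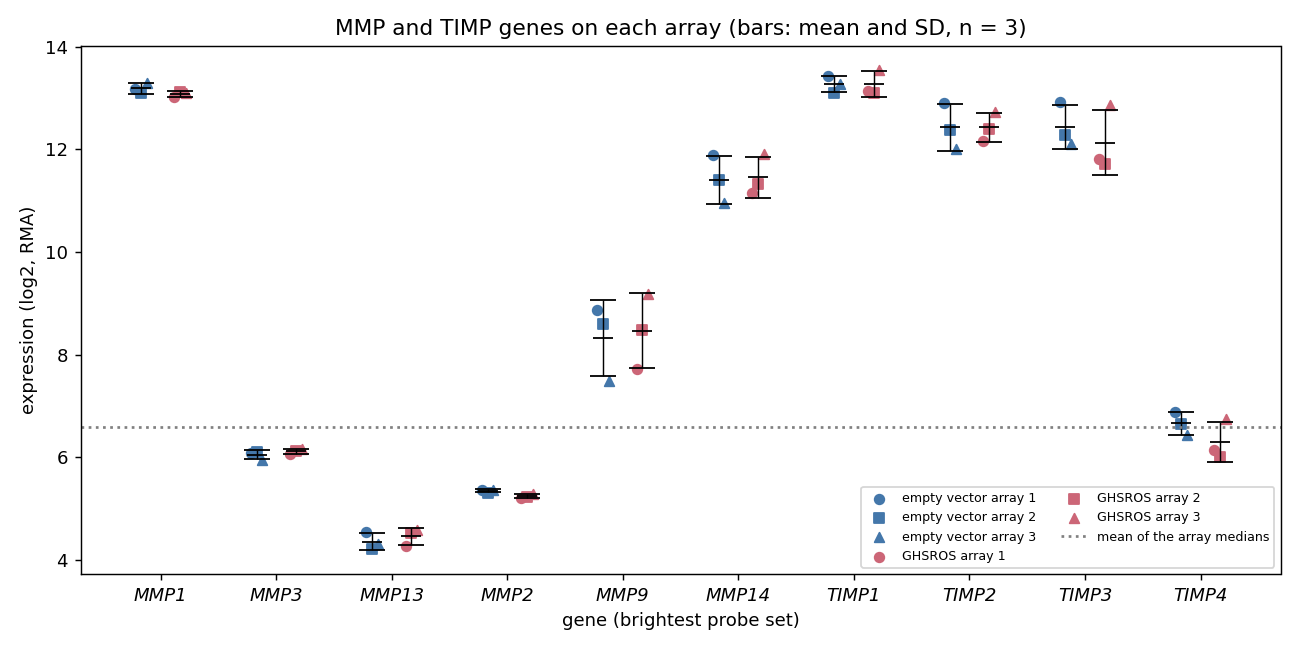
Expression of the 10 genes on each of the 6 arrays, on the deposited log2 scale, with the mean and SD of each group as bars and the mean of the array medians as a dotted line. MMP1 and TIMP1 lie near 13 on every array, MMP2, MMP3 and MMP13 stay below the dotted line on all arrays, and MMP9 spans 1.70.

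Among the collagenases, MMP1 was the bright gene. MMP1 opens the triple helix of fibrillar collagens and is the interstitial collagenase known from this line's metastatic variants. Its levels were 13.18, 13.10 and 13.29 in empty-vector arrays 1, 2 and 3, and 13.03, 13.12 and 13.11 in GHSROS arrays 1, 2 and 3. The groups overlapped, since empty-vector array 2 lay below GHSROS arrays 2 and 3. The log2 fold change of MMP1 was -0.10 (SE 0.09), with group means of 13.19 ± 0.10 (SD, n = 3) and 13.08 ± 0.05. Its 95% interval allows a GHSROS level between 0.80 and 1.08 times that of the empty vector, the narrowest margin a bright member gave. MMP1 varied over the 6 arrays by 0.26, less than the median of all genes, 0.37.

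MMP13, the collagenase of cartilage and bone, read 4.54, 4.21 and 4.31 with the empty vector and 4.28, 4.52 and 4.58 with GHSROS. These levels stood at percentile 10.4 of the gene means and overlapped, and the groups differed by 0.11 (SE 0.13) on the log2 scale. MMP3, stromelysin-1, cuts proteoglycans and laminin and can activate other proenzymes. It read 6.09, 6.11 and 5.95 with the empty vector and 6.06, 6.12 and 6.16 with GHSROS. They all lay below the array medians and overlapped between the groups, for a log2 fold change of 0.07 (SE 0.09). MMP1, MMP3 and MMP13 lie in a cluster of MMP genes on chromosome 11, in which RefSeq places MMP10 and MMP3 directly beside MMP1. MMP10, MMP12, MMP7, MMP8, MMP20 and MMP27 of this region averaged between 3.68 and 4.64, so that MMP1 was the only measured gene of the cluster above the median of all probe sets. RefSeq also places the pseudogene WTAPP1 across MMP1 and part of MMP3, and the labels do not say which strand these probe sets detect.

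The gelatinases behaved differently from each other. MMP2, which degrades gelatin and type IV collagen and is known mainly from stromal fibroblasts, was dim, at percentile 21.2 of the gene means. Its levels were 5.37, 5.31 and 5.36 with the empty vector and 5.21, 5.23 and 5.29 with GHSROS. MMP2 was the only member whose groups did not overlap, with the GHSROS arrays all lower, which held for 2.44% of all genes (5.51% counting either direction). The log2 fold change was -0.11 (SE 0.08), limma's unadjusted p was 0.215, and its range of 0.17 over the arrays was the smallest among the members. Whether signal at this level lies above background was not tested.

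MMP9, the other gelatinase, is inducible by cytokines and growth factors. It had levels of 8.88, 8.59 and 7.48 in empty-vector arrays 1, 2 and 3, and of 7.73, 8.49 and 9.18 in GHSROS arrays 1, 2 and 3. GHSROS array 3 was the highest and empty-vector array 3 the lowest, and the groups overlapped over most of their range. The group means were 8.32 ± 0.74 (SD, n = 3) and 8.47 ± 0.73, with a log2 fold change of 0.15 (SE 0.46). With single arrays left out, the direction turned to -0.27 (empty-vector array 3) or -0.21 (GHSROS array 3), and the value was 0.43 (empty-vector array 1), 0.52 (GHSROS array 1) or 0.29 (empty-vector array 2). Its 95% interval allows a GHSROS level between 0.52 and 2.37 times that of the empty vector. With 3 arrays per group this wide interval includes a doubling and comes close to a halving. A range of at least 1 over the 6 arrays, met by MMP9 at 1.70 and TIMP3 at 1.20, was seen in 5.57% of all genes.

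MMP14, the membrane-anchored collagenase and activator of MMP2, read 11.89, 11.40 and 10.95 with the empty vector and 11.15, 11.32 and 11.92 with GHSROS. Empty-vector array 1 and GHSROS array 3 were the highest, and empty-vector array 3 was the lowest. The log2 fold change of MMP14 was 0.05 (SE 0.28), with group means of 11.41 ± 0.47 (SD, n = 3) and 11.46 ± 0.40, with -0.62 to 0.72 as the 95% interval. It turned to -0.18 when either array numbered 3 was left out.

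**Figure D2:**
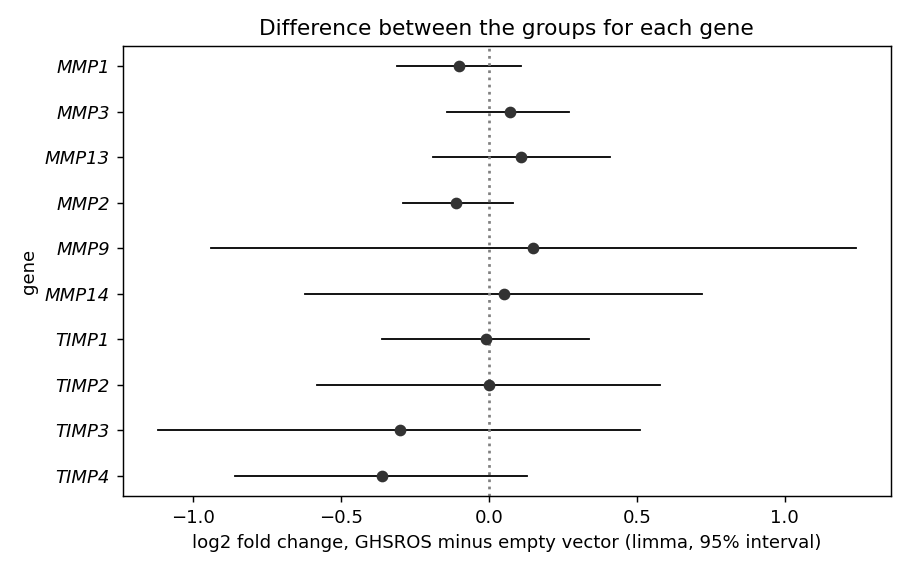
Log2 fold change of each gene, GHSROS minus empty vector, as points with limma's 95% interval as lines. Every interval includes 0, with the widest at MMP9 (-0.94 to 1.24) and the most negative points at TIMP4 (-0.36) and TIMP3 (-0.30).

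Of the inhibitors, TIMP1 and TIMP2 had nearly equal means in both groups, while TIMP3 and TIMP4 were lower on average with GHSROS without passing the test. TIMP1 is a secreted inhibitor of most soluble MMPs, pairs with pro-MMP9 and also has growth-promoting activity of its own. It read 13.43, 13.11 and 13.28 with the empty vector and 13.14, 13.11 and 13.55 with GHSROS. GHSROS array 3 and empty-vector array 1 were the highest, and the log2 fold change was -0.01 (SE 0.15). TIMP2, which inhibits MMP14 and bridges it to pro-MMP2, read 12.90, 12.38 and 12.00 with the empty vector and 12.16, 12.39 and 12.73 with GHSROS. The group means of TIMP2 were 12.43 ± 0.45 (SD, n = 3) and 12.43 ± 0.28, and the log2 difference had a 95% interval of -0.58 to 0.58.

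TIMP3 is bound to the extracellular matrix and also inhibits ADAM17, the protease that releases TNF. Its levels were 12.92, 12.28 and 12.10 in empty-vector arrays 1, 2 and 3, and 11.81, 11.72 and 12.86 in GHSROS arrays 1, 2 and 3. GHSROS arrays 1 and 2 were the lowest of all, but GHSROS array 3 lay above empty-vector arrays 2 and 3, so the groups overlapped. The log2 fold change was -0.30 (SE 0.34), or 1.24-fold lower, with group means of 12.43 ± 0.43 (SD, n = 3) and 12.13 ± 0.63. The other TIMP3 probe set, 8075635, had the same 4 highest arrays in the same order, with 10.35, 9.54 and 9.40 with the empty vector and 8.61, 8.95 and 10.15 with GHSROS. The difference there was -0.53, larger than with probe set 8072626, and it also missed the test (limma unadjusted p of 0.258).

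TIMP4, an inhibitor known mainly from heart and adipose tissue, was dim at percentile 36.7 of the gene means. It read 6.88, 6.65 and 6.44 with the empty vector and 6.14, 6.0 and 6.74 with GHSROS. GHSROS arrays 1 and 2 again lay below every empty-vector array and GHSROS array 3 above empty-vector arrays 2 and 3. The log2 fold change of -0.36 (SE 0.21), 1.29-fold lower, was the largest difference among the members, and limma's unadjusted p of 0.127 the smallest.

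The differences of TIMP3 and TIMP4 depended on which arrays were used, and all were negative. Leaving out empty-vector array 1 and GHSROS array 3, which stood apart in earlier results and are also the highest for these genes, gave log2 fold changes of -0.42 for TIMP3 and -0.48 for TIMP4. Because that choice follows the genes' own values and narrows their spread, it gives no test, and limma's unadjusted p-values with all 6 arrays were 0.405 and 0.127. With only GHSROS array 3 left out the values were -0.67 and -0.59, and with only empty-vector array 1 left out they were -0.06 and -0.25. They were -0.14 and -0.29 without GHSROS array 1, and -0.10 and -0.22 without GHSROS array 2. Leaving out empty-vector array 2 gave -0.38 and -0.37, and leaving out empty-vector array 3 gave -0.47 for each. With array weights the values were -0.46 and -0.49. With the mean of the mitosis genes on each array as a covariate, a fit added after the data were seen, they were -0.25 (SE 0.10) and -0.33 (SE 0.10). No adjusted p for either gene was under 0.71 in any of these settings.

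TIMP1, TIMP3 and TIMP4 each lie within a synapsin gene in RefSeq, SYN1, SYN3 and SYN2, so the host genes' values stand beside theirs. The synapsin genes read between 5.87 and 6.49 on all arrays, below the array medians, and had log2 fold changes of 0.10 (SE 0.11) for SYN1, -0.01 (SE 0.14) for SYN3 and 0.05 (SE 0.10) for SYN2. The ranges of SYN3 (0.50) and SYN2 (0.25) over the arrays were smaller than those of TIMP3 (1.20) and TIMP4 (0.87).

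Arrays of the same group differed widely in several of these genes. In 7 of 10 members, MMP9, MMP13, MMP14 and all 4 TIMPs, the highest levels were those of empty-vector array 1 and GHSROS array 3. For MMP13 the margin was narrow, at 4.54 and 4.58 against 4.52 on GHSROS array 2. Its range of 0.37 equalled the median of all genes. The same 2 arrays were the highest for 18.9% of all genes. In 20.3% empty-vector array 1 and GHSROS array 3 were the lowest, which held for 0 members. These arrays were known from earlier results of the same data to stand apart from the other 4, so the count is a description. On the same arrays 25 mitosis and G2/M genes averaged 10.01 and 10.04, against 10.86 to 11.07 on the others, and 22 amino acid stress genes of the ATF4 response averaged 10.26 and 10.29, against 9.23 to 9.64. The part of either in the levels of the MMP and TIMP genes was not tested. Fibroblast markers averaged 5.29 and 5.45 there and 5.26 to 5.34 elsewhere. Of these 8 genes, PDGFRB was highest on those arrays, at 7.44 and 7.52 against 6.52 to 7.16, COL1A1 lay between 7.62 and 7.85 on all arrays, and the other 6 lay below the array medians. Endothelial markers averaged 6.85 and 7.08, against 6.21 to 6.49, with KDR at 8.81 and 9.10 there and 7.20 to 7.77 elsewhere. CDH5 read 6.94 and 7.32 there and 6.65 to 7.18 elsewhere, PECAM1 6.30 and 6.50 against 5.57 to 6.33, and VWF 5.35 and 5.39 against 5.14 to 5.39. The part of these markers in the result was not tested.

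**Figure D3:**
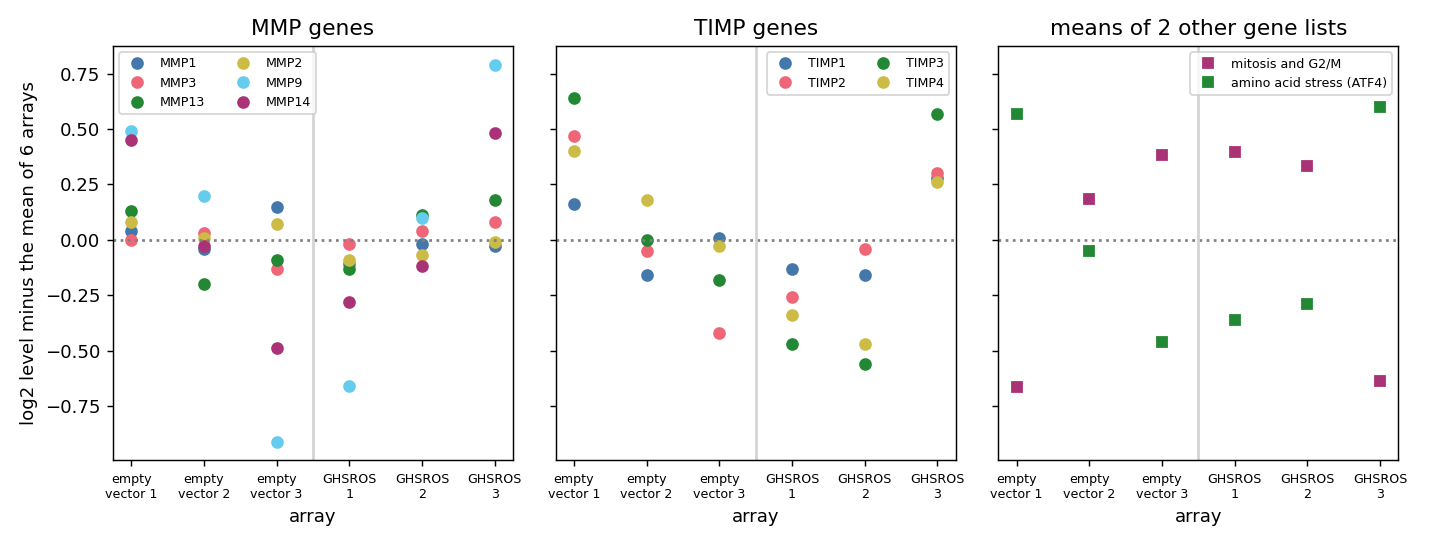
Level of each gene on each array minus its mean over the 6 arrays, for the MMP genes (left), the TIMP genes (middle) and, for reference, the means of 25 mitosis genes and 22 amino acid stress genes (right), all on the log2 scale. TIMP3 stands at 0.64 and 0.57 on empty-vector array 1 and GHSROS array 3 and at or below 0 on the others, while mitosis genes are lowest on those arrays.

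MMP14 and TIMP2 moved together from array to array, though not only with each other. The difference between their probe sets was -1.01, -0.97 and -1.06 in empty-vector arrays 1, 2 and 3, and -1.01, -1.07 and -0.80 in GHSROS arrays 1, 2 and 3. It varied by 0.27, whereas MMP14 itself varied by 0.98 and TIMP2 by 0.90. The size of such a difference depends on the probes and only its variation can be read. For MMP9 and TIMP1 it varied by 1.43, close to the 1.70 of MMP9 alone, with means of -4.96 ± 0.73 (SD, n = 3) and -4.80 ± 0.54. For MMP1 and TIMP1 the variation was 0.45, and for MMP2 and TIMP2 0.89, close to the 0.90 of TIMP2. These 4 pairs, in which the inhibitor is known to bind the protease, were chosen after the values had been seen, and no test was made of them. Genes outside the pairs moved in the same way. CEBPB, for example, read 10.95, 10.47 and 10.04 with the empty vector and 10.30, 10.33 and 10.98 with GHSROS, close to the course of MMP14. FN1 read 12.37, 12.07 and 11.52 with the empty vector and 11.69, 11.90 and 12.31 with GHSROS, close to that of TIMP2. The shared movement is therefore not particular to MMP14 and TIMP2, and the share of all genes that follow it was not counted.

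**Figure D4:**
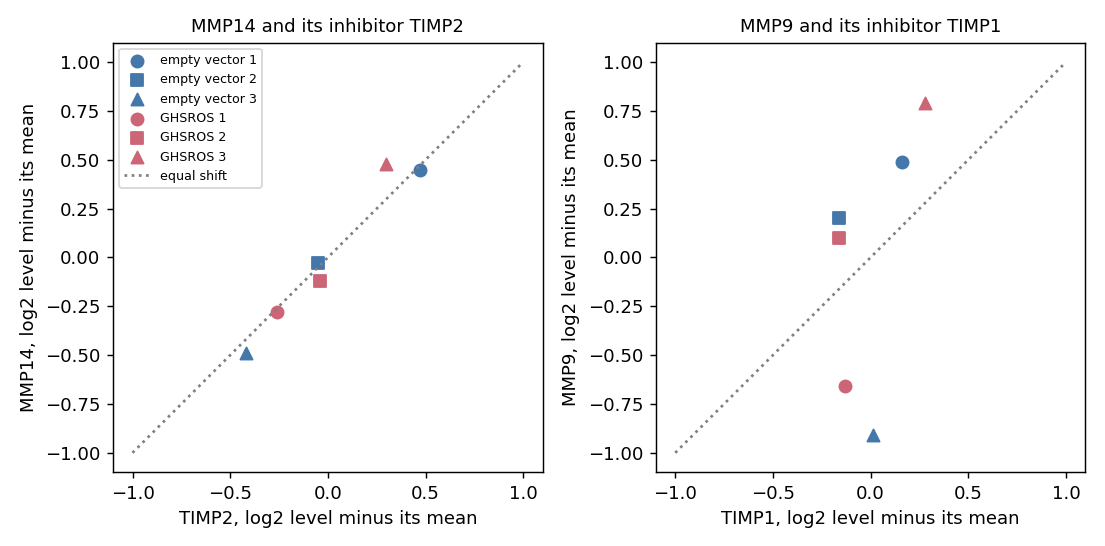
Shift of MMP14 against that of TIMP2 (left) and of MMP9 against that of TIMP1 (right) on each of the 6 arrays, each as log2 level minus its own mean, with a dotted line of equal shifts. MMP14 and TIMP2 lie near the dotted line, while MMP9 spreads over 1.70 and TIMP1 over 0.44.

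The genes whose levels followed a member most closely were sought for MMP9 and TIMP3, which had a range of at least 1. The measure was the mean absolute difference over the 6 arrays after each gene's mean was removed, with no test, since all genes share the arrays. Closest to MMP9 were LAMA5, a laminin chain gene of basement membranes, and IRAK2, a kinase gene of Toll-like receptor and interleukin-1 signalling, each at 0.11, and YPEL2 at 0.12. The median over all genes was 0.55. LAMA5, for example, read 9.91, 9.60 and 8.55 with the empty vector and 8.67, 9.26 and 9.95 with GHSROS. Closest to TIMP3 were BLVRB, a biliverdin and flavin reductase gene, at 0.05, SQOR, a mitochondrial sulfide oxidase gene, at 0.06 and CARF at 0.07, where the median over all genes was 0.43. BLVRB read 9.67, 8.99 and 8.88 with the empty vector and 8.68, 8.61 and 9.65 with GHSROS.

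Promoter sequences are shown for all members with an entry in the RefSeq table (GRCh38.p14), 4 of 10. Each was highest on empty-vector array 1 and GHSROS array 3, as were MMP9, MMP13 and TIMP2, which have no entry. Each run is the 250 bases before the annotated start, 5′ to 3′ on the gene's strand. Capitals mark matches to the GC box GGGCGG on either strand, the motif read by Sp1-type factors. AP-1 matches (TGANTCA) and TATA boxes (TATAAA) were searched on both strands as well, with 0 matches in each of the 4 windows. Only these exact letters were counted, so sites that vary from them, such as tgagtaa in the TIMP1 window, are missed. The first window, of MMP14, is chr14:22836335-22836584 on the + strand, and that of TIMP1 is chrX:47582186-47582435 on the + strand. The window of TIMP3 is chr22:32801455-32801704 on the + strand, and that of TIMP4 is chr3:12158913-12159162 on the - strand.
MMP14: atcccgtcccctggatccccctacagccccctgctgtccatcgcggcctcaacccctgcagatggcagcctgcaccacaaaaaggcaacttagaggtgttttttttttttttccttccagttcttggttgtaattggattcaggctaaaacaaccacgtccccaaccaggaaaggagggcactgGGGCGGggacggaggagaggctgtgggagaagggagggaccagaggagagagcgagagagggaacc
TIMP1: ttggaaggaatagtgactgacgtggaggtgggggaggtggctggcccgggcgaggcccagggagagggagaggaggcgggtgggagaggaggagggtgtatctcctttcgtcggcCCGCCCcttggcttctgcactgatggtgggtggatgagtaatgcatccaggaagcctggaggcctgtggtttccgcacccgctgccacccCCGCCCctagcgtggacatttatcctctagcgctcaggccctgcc
TIMP3: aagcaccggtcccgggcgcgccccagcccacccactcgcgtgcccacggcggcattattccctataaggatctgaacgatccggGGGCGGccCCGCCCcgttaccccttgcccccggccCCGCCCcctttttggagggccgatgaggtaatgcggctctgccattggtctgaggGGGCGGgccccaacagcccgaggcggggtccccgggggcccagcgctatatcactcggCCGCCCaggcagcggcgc
TIMP4: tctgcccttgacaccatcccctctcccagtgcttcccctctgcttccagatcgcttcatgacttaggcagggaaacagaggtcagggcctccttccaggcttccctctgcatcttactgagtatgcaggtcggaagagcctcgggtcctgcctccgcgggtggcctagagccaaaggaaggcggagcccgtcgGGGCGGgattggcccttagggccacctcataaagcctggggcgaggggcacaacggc
The GC box was matched 5 times before TIMP3, 2 times before TIMP1 and 1 time each before MMP14 and TIMP4. Among 35116 RefSeq windows of this length, 42.6% held it, 6.57% held the AP-1 letters and 10.7% the TATA letters. TIMP3 had the highest GC content of the 4 windows, 72.4%, and MMP14 the lowest, 56.8%, where the median window had 58%. A match is a description of the letters, and its use in these cells was not measured.

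The rest of the family was dim in these cells and showed no difference that passed. Of 16 other MMP genes measured, 7 were higher and 9 lower with GHSROS, beside 50.9% of all genes higher. Of the 16, 0 passed limma's adjusted p and 0 had an unadjusted p under 0.05. Their median log2 fold change was -0.01 beside 0.002 for all genes. Only 4 of the 16, MMP11, MMP15, MMP17 and MMP19, lay above the median of all probe sets, beside 61.8% of all genes. MMP11, stromelysin-3, which is known from tumour stroma, read 8.40, 7.65 and 7.44 with the empty vector and 7.20, 7.39 and 8.13 with GHSROS (log2 fold change -0.26, SE 0.32), with the same arrays at the top as for TIMP3. MMP16, another membrane-anchored protease, differed by -0.25 (SE 0.16). MMP23B was not analysed here.

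Of 17 ADAM and ADAMTS genes, relatives of the MMPs that shed cell-surface proteins or cut proteoglycans, 11 were higher and 6 lower. This stands beside 50.9% of all genes higher. Their median was 0.04, with 0 past an unadjusted p of 0.05 in limma. ADAM8 differed by 0.20 (SE 0.48) and spanned 1.88 over the arrays. It read 11.13, 10.49 and 9.55 with the empty vector and 10.09, 10.26 and 11.43 with GHSROS. ADAMTS1 differed by -0.17 (SE 0.35) and ran the other way across arrays, lowest at 9.61 and 9.30 on empty-vector array 1 and GHSROS array 3.

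Other inhibitors and docking proteins of MMPs were higher in 8 and lower in 4 of 12, beside 50.9% of all genes higher. Their median was 0.04, with 0 past either threshold. TFPI2, a secreted serine protease inhibitor, differed by 0.39 (SE 0.25) and LRP1, the endocytic receptor that clears MMP complexes, by -0.38 (SE 0.65). LRP1 spanned 2.37 over the arrays, at 9.86, 8.92 and 7.49 with the empty vector and 7.60, 8.26 and 9.27 with GHSROS. RECK, a membrane-anchored inhibitor, differed by 0.08 (SE 0.14), and BSG, the MMP inducer also called EMMPRIN, by -0.01 (SE 0.12).

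Of 16 genes for proteases that activate MMPs, 6 were higher and 10 lower, beside 50.9% of all genes higher. Their median was -0.05, with 0 past the adjusted test. PCSK6, a proprotein convertase, had an unadjusted p of 0.0205 in limma, reached with a higher level by 0.974% of all genes. It read 6.26, 6.37 and 6.57 with the empty vector and 6.68, 6.75 and 6.69 with GHSROS, which is a difference of 0.31 (SE 0.10) and an adjusted p of 1. The GHSROS arrays were all higher for 2 of the 16 genes, PCSK6 and ELANE, beside 3.06% of all genes. They were all lower for 2, PRSS1 and HPN, beside 2.44% of all genes. PLAU, the urokinase gene that starts the plasmin cascade, differed by -0.21 (SE 0.38), and FURIN, which processes pro-MMP14, by 0.09 (SE 0.10).

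Transcription factors that drive MMP promoters were above the median of all probe sets in 20 of 20, beside 61.8% of all genes. They were higher in 14 and lower in 6, beside 50.9% of all genes higher. Their median was 0.04, with 0 past either threshold. FOS differed by -0.32 (SE 0.28) and EGR1 by 0.23 (SE 0.16). FOSL1, the AP-1 subunit that is abundant in this line, averaged 11.68 over the arrays and differed by 0.06 (SE 0.10), and ETS1 differed by 0.08 (SE 0.12). Of 18 matrix substrate genes, 15 were higher and 3 lower with GHSROS, beside 50.9% of all genes higher. Their median was 0.06, with 0 past either threshold. Genes of a list share the same arrays, so these signs give no test. NID1, a basement membrane linker gene, differed by 0.27 (SE 0.11) and VCAN, a proteoglycan gene, by 0.23 (SE 0.13), both at levels below 5. FN1, the fibronectin gene, averaged 11.98 and differed by -0.02 (SE 0.25).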

How the data were processed

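For each of 6 arrays the authors deposited log2 expression values by probe set. RMA produced them, per the submitters' processing notes, which leave its version, steps and filters unstated. Groups and replicate numbers came from the sample titles. Arrays carry no read depth, and their number limits precision.

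Of 28869 probe sets, 19310 had 1 gene symbol in the platform annotation, 1752 had several and 7807 were not listed. Symbols were checked through RefSeq (GRCh38.p14), which changed 0. The brightest probe set per gene was kept, giving 18377 genes. The groups were compared with limma 3.58.1 in R 4.3.3 (lmFit, eBayes, group only, two-sided, Benjamini-Hochberg over all genes, threshold 0.05), a pipeline tested on simulated data. A positive difference means a higher level with GHSROS, and standard errors are moderated. The submitters call the cultures biological replicates. If they were not grown separately, the p-values reflect only spread among these samples, which may be technical.

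Members and lists were chosen with earlier results of these data known. From each list of MMP-related genes the 2 with the largest differences were named, and those with an unadjusted p under 0.05 where at most 4. Mitosis and stress lists are given by their means. Marker genes were named for their levels. RECK, BSG, FURIN, FOSL1, ETS1 and FN1 were added for their known roles after their values were seen. CEBPB, and FN1 beside TIMP2, were named as examples of shared movement, also after their values were seen.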

Additional observations from a re-analysis of the deposited data

How the results depend on the processing

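With 3 arrays per group, and members that differ by up to 1.70 between arrays, only large differences could be called. Over 17 other settings of the fit 0 members passed an adjusted p of 0.05. For all genes that count was 0 in each setting except with the mitosis mean as a covariate, added after the data were seen, which gave 3 genes, none of them a member. The replicate number as a block changed no call, with 0 genes and 0 members past the threshold. Deviations of same-numbered arrays from their group means correlated at -0.71, 0.50 and -0.67 across genes. Because empty-vector array 1 and GHSROS array 3 stand apart and carry different numbers, these values cannot show whether same-numbered cultures were handled together.

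Counts of members higher with GHSROS, 5 in the reported fit, were 3 among genes at or above the median level, where only 6 members remain, and 2 with array weights. Leaving out single arrays gave counts from 2 to 6. MMP1, MMP2, MMP3, MMP13, TIMP3 and TIMP4 kept their direction in every setting that held them. With array weights MMP9 turned to -0.28, MMP14 to -0.11 and TIMP2 to -0.10. TIMP1 turned to 0.03 after quantile normalization and 0.01 with the mitosis covariate, and TIMP2 to -0.01 after median centring. With single arrays left out, MMP9 ran from -0.27 to 0.52, MMP14 from -0.18 to 0.29, TIMP1 from -0.15 to 0.07 and TIMP2 from -0.21 to 0.24. The cause of these turns was not tested.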
